A study of Mus musculus with 4 samples.

Results

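Serpins are protease inhibitors that share a fold. The genes examined here are those whose annotated symbol starts with Serpin, without Serpinh1, and 54 of the 19505 genes measured met that rule. The family was selected on the difference of Serpinb9b, which fell in macrophages lacking Hem1, so this value stands here as a description, with no test. The other members entered by their symbol alone, in the same contrast, and their calls are likewise descriptions for which no p is printed.

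The series set wild-type (WT) mouse macrophages against Hem1 KO macrophages, with 2 arrays per genotype from distinct mice. Hem1, encoded by Nckap1l, is the blood-cell subunit of the WAVE complex, which turns on branching of actin filaments. Both genotypes were grown from femoral marrow for 8 days with medium conditioned by L929 cells, which supplies CSF1, and received no further treatment. The labels name the genotypes only as WT and Hem1 KO, and the strain, the age and the deleted part of the gene are not given in the sources used here.

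Most serpins offer a protease a loop that resembles its substrate. When the protease cuts this loop, the serpin changes shape and traps the enzyme in a covalent complex. Clade letters follow the family tree. Clade A holds secreted plasma proteins such as antitrypsin, clade B holds mostly intracellular inhibitors that shield leukocytes from their own granule and lysosomal proteases, and clades C to I include regulators of clotting, fibrinolysis and complement.

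In RefSeq (GRCm38.p6) the clade B genes lie in a row on chromosome 1 and in another on chromosome 13, and the second row holds Serpinb6b, Serpinb9 and Serpinb9b next to one another among the measured genes. The 250 bases before the RefSeq start of these 3 genes are shown because 2 of them were lower in the Hem1 KO macrophages and the member between them was not called. That member, Serpinb9, is no unchanged contrast, since it lay above the array background defined below on only 1 array and also read lower (-0.33). Whether any motif bears on these values was not tested. All are on the + strand, at chr13:33027164-33027413 for Serpinb9b, chr13:33004291-33004540 for Serpinb9 and chr13:32965011-32965260 for Serpinb6b. Capitals mark matches, on either strand, to GAGGAAG, a core bound by the myeloid factor PU.1, or to the interferon response motif, which is GAAA, any 2 bases and GAAA.
Serpinb9b: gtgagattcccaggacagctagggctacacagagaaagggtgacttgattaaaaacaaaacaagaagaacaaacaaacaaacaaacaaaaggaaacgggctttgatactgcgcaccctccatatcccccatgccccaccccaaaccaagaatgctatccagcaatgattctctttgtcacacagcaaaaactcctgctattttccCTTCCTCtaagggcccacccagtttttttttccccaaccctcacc
Serpinb9: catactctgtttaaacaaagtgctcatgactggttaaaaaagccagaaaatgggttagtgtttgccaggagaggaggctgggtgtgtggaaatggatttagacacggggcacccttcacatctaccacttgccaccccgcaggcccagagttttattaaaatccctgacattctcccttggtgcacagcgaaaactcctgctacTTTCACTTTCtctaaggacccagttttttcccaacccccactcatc
Serpinb6b: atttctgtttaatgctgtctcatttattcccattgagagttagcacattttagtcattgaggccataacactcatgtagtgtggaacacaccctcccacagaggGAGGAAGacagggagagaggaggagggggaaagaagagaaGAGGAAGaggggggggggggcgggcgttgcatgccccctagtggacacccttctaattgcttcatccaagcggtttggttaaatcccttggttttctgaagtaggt

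The Serpinb9b and Serpinb9 windows resemble each other. A local alignment covered 167 columns, 118 of them identical (70.7%) and 17 of them gaps. The Serpinb9b window held 1 PU.1 core, which began 45 bases before the start, and the Serpinb9 window held none of these but an interferon response motif that began 46 bases before its start. The Serpinb6b window held 2 PU.1 cores, 146 and 106 bases before the start, and its best local alignment with the Serpinb9b window spanned only 8 columns. The window of Serpinb1c also aligned with that of Serpinb9b, over 93 columns (74.2% identical). Of the 32851 RefSeq windows of this length, 10.6% held the PU.1 core and 2.98% the interferon motif. A match of letters does not show that a factor binds.

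Of the 54 members, 48 have such a window. A member was counted where any of its windows held the motif, while the percentages are of all windows, so these are not like measures. The PU.1 core was found before 7 of them, which besides Serpinb6b and Serpinb9b were the uncalled Serpinb1c, Serpina16, Serpina3b, Serpine3 and Serpini1, the interferon motif before 2, the AP-1 motif TGANTCA before 11 (6.75% of all windows), TATAAA before 12 (12.4%) and the EGR motif GCGNGGGCG before 0 (4.70%), each on both strands. In the windows of Serpinb9b, Serpinb9 and Serpinb6b no 2 of these matches overlapped.

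As a check of the genotype labels, Nckap1l read 11.37 and 11.11 in WT against 10.04 and 9.62 in Hem1 KO macrophages, without overlap. Its probes check nothing if they lie outside the deleted part. An array's background was the 95th percentile of its values for 1448 chemosensory receptor genes (smell, pheromone and taste), and it lay between 5.38 and 6.04. All 9 measured macrophage markers lay above it on every array. Their mean level was 11.64 and 11.33 in WT against 11.13 and 11.12 in Hem1 KO macrophages, with 9 of 9 lower and a median difference of -0.37. The mean level of 9 stromal markers was 7.24 and 6.72 against 8.86 and 8.27, with 9 of 9 higher and a median difference of 1.94, although 2 of the 9, Thy1 and Lum, did not exceed background on any array. The part of these shifts in the serpin values was not tested, and in bulk RNA fewer cells of a type and less RNA per cell cannot be told apart.

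Few serpin genes were well expressed. Of the 54 members, 14 lay above background on all 4 arrays, 10 on some arrays and 30 on none. Of all 19505 genes, 11778 lay above background on all 4 arrays. The 14 were Serpina11, Serpina1e, Serpina3i, Serpina5 and Serpina6 in clade A, Serpinb12, Serpinb1a, Serpinb2, Serpinb6a, Serpinb8 and Serpinb9b in clade B, Serpinf1 and Serpinf2 in clade F, and Serping1. With the 99th percentile as background, 8 of the members lay above it on every array, and Serpina1e, Serpina5, Serpinb12, Serpinb1a, Serpinb8 and Serpinf2 were no longer among them. RefSeq lists 8 further protein-coding serpin genes, which were not analysed here. Some serpins are close copies of each other, such as the Serpina1, Serpina3 and Serpinb9 genes, and to what extent their probes also bind the copies was not tested.

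**Figure D1:**
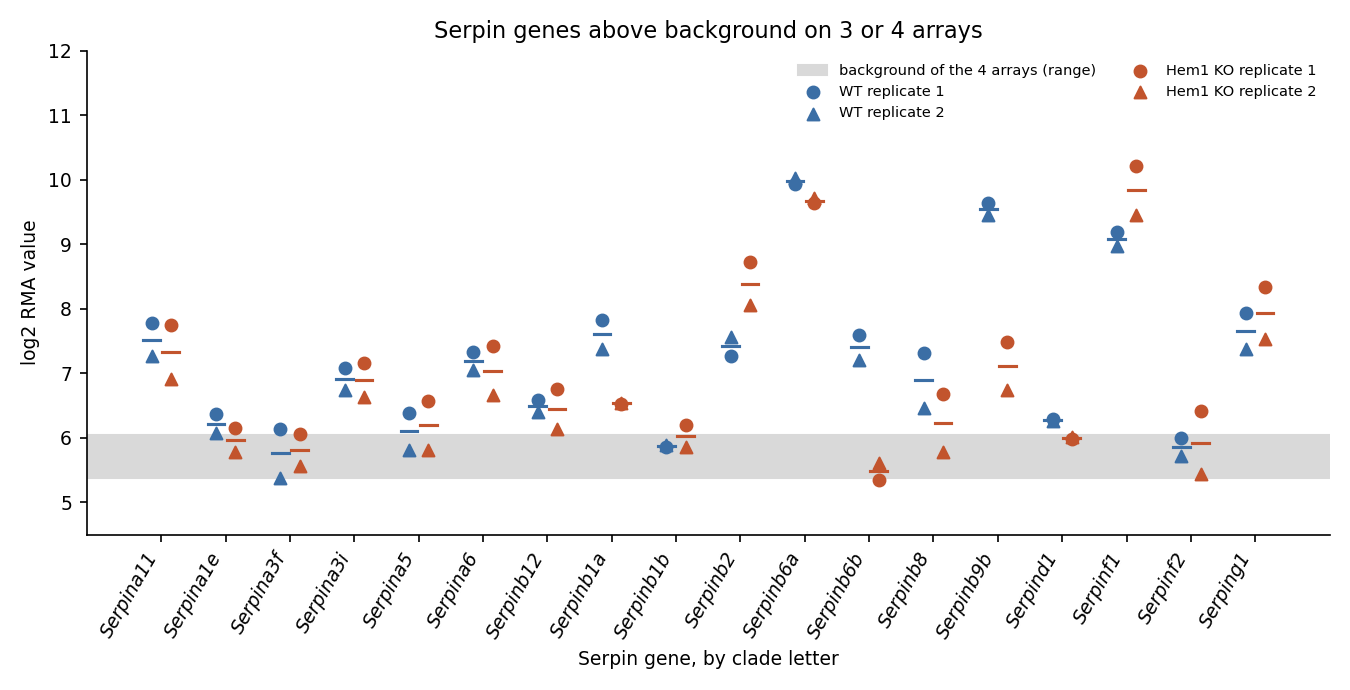
Log2 RMA value (vertical axis) of the 18 serpin genes that lay above background on 3 or 4 arrays, ordered by clade (horizontal axis), with circles for replicate 1, triangles for replicate 2, blue for WT, orange for Hem1 KO and a short line for each group mean. The grey band is the range of background over the arrays, from 5.38 to 6.04. Serpinb9b and Serpinb6b have Hem1 KO values far below both WT values, while Serpinb2 and Serpinf1 have Hem1 KO values above both WT values.

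Across the family most members hardly differed between the genotypes, but 30 of the 54 never rose above background. The median difference, in log2 units and taken as Hem1 KO minus WT, was 0.02 over the 54 members, against 0.01 over all 19505 genes. After centring the arrays on their medians it was -0.08, against -0.09 over all genes, and after quantile normalization -0.08, against -0.03. The difference was smaller than 0.5 in either direction in 48 members. In the deposited values, the 30 members never above background had a median of 0.04 and ran from -0.49 to 0.29. The 14 members above background on all arrays had a median of -0.10, with 9 below 0 and 5 above. All genes above background on all arrays had a median of -0.05. Limma, fitted on all genes, called Serpinb6b lower in the Hem1 KO macrophages and 0 members higher at a Benjamini-Hochberg adjusted p under 0.05. Serpinb9b, which chose the family, is left out of this call. At an unadjusted p under 0.05, 3 were lower, Serpinb9b among them, and 2 higher. Of all genes, 0.133% were called lower and 1.48% higher. Both Hem1 KO arrays lay below both WT arrays in 9 members and above them in 4, while 13.3% and 12.5% of all genes did so. Because this contrast chose the family, nothing is read from these counts.

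Only 6 members differed by 0.5 or more, and 5 of these were in clade B (Serpinb9b, Serpinb6b, Serpinb1a, Serpinb8 and Serpinb2), with Serpinf1 as the other. Clade B holds 26 of the 54 members, and clades C, D, E and G hold 1 each. The count includes Serpinb9b, which chose the family, and Serpinb8, in which the genotypes overlapped. How many of all genes differed by as much was not counted, so nothing is read from this count about the clades.

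**Figure D2:**
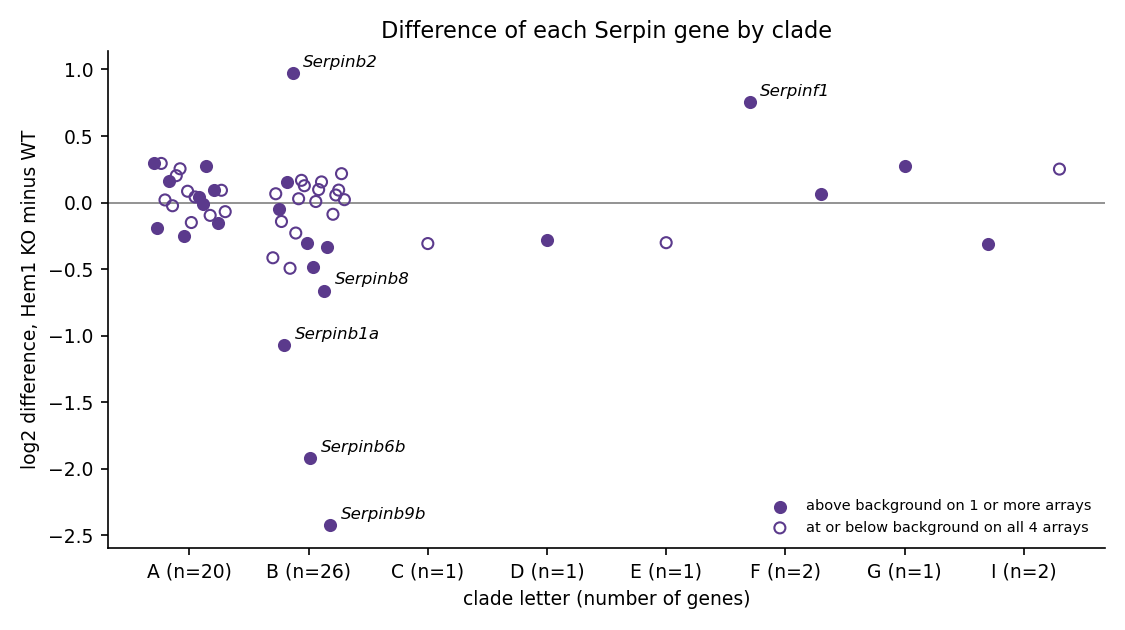
Log2 difference, Hem1 KO minus WT (vertical axis), of each of the 54 serpin genes by clade letter (horizontal axis), filled where the gene lay above background on 1 or more arrays and open where it did not. The 20 clade A genes lie between -0.25 and 0.30, while the 26 clade B genes run from -2.42 for Serpinb9b to 0.97 for Serpinb2.

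Serpinb9b is an intracellular serpin, once called SPI-CI, and a relative of the granzyme B inhibitor Serpinb9. It read 9.64 and 9.45 in WT against 7.49 and 6.75 in Hem1 KO macrophages. Both Hem1 KO values lay below both WT values and still above background. The difference was -2.42 (SE 0.34 by limma, n = 2 arrays per genotype), 5.37-fold lower. When any single array was left out or the processing was changed, it ran from -2.80 to -2.05. The gap between the Hem1 KO replicates was 0.75 and that between the WT replicates 0.18.

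Serpinb6b, a clade B gene 2 places before Serpinb9b among the measured genes, was called lower. It read 7.60 and 7.20 in WT against 5.35 and 5.61 in Hem1 KO macrophages. The genotypes did not overlap, and of the 2 Hem1 KO arrays only replicate 2 was above background. The difference was -1.92 (SE 0.32, n = 2), or 3.78-fold in the fitted values. In the 10 alternatives it ran from -2.12 to -1.72 and was called lower in all 10. Those that leave out an array assume that the lone array varies like the other group.

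Serpinb1a inhibits neutrophil elastase, cathepsin G and proteinase 3. It read 7.83 and 7.38 in WT against 6.53 and 6.54 in Hem1 KO macrophages, without overlap. Its difference of -1.07 (SE 0.32, n = 2) was not called. It was called after the arrays were centred on their medians, at -1.17. The difference of -1.07 is larger than the gap of 0.45 between its WT replicates.

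Serpinb6a, the closest mouse counterpart of human SERPINB6, which inhibits cathepsin G, stayed near its WT level. It read 9.94 and 10.03 in WT against 9.64 and 9.71 in Hem1 KO macrophages, a difference of -0.31 (SE 0.31, n = 2). The values did not overlap, but the difference was no larger than its SE. Serpinb9, the granzyme B inhibitor, read 5.73 and 5.89 in WT against 5.63 and 5.33 in Hem1 KO macrophages, and was above background on 1 array, WT replicate 2. Its difference was -0.33 (SE 0.32).

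The other named copies gave little signal. Serpinb9c, Serpinb9d, Serpinb9e, Serpinb9f and Serpinb9g lay at or below background on all 4 arrays, with differences from -0.09 to 0.22. So did Serpinb6d (0.01) and Serpinb6e (0.10). Serpinb6c was above background on 1 array and read -0.49. At such levels a change could hardly be seen.

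The members of chromosome 13 were then placed in their RefSeq order. The 15 members there are Serpinb1a, Serpinb1c, Serpinb6b, Serpinb9 and Serpinb9b, followed by Serpinb1b, 5 further Serpinb9 copies and the remaining Serpinb6 genes. The first 5 measured members of the row all read lower in the Hem1 KO macrophages, with -1.07, -0.49, -1.92, -0.33 and -2.42. Serpinb1c lay at or below background on all 4 arrays, and its difference was -0.04 without WT replicate 1. Serpinb9 was above background on 1 array. The 10 members after Serpinb9b ran from -0.49 to 0.22. The 4 nearest measured genes before the row and the 4 after its last member ran from -0.49 for Tubb2a to 1.11 for Foxc1. This stretch was singled out after the values were seen, and it holds Serpinb9b, which chose the family.

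**Figure D3:**
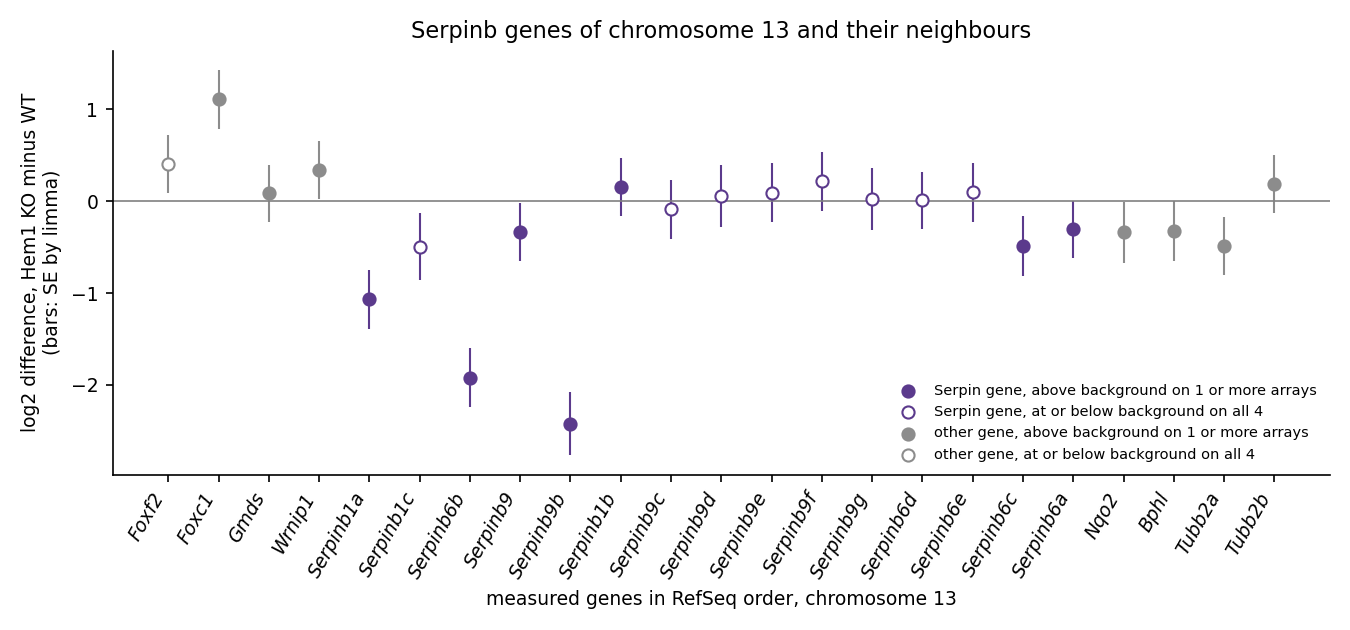
Log2 difference, Hem1 KO minus WT (vertical axis), with bars for the SE by limma, of the measured genes on chromosome 13 from 4 genes before Serpinb1a to 4 after Serpinb6a in RefSeq order (horizontal axis). Purple marks serpin genes, grey other genes, and open points lie at or below background on all arrays. The points from Serpinb1a to Serpinb9b lie below 0, and those from Serpinb1b to Serpinb6e lie within 0.22 of it.

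On chromosome 1 the 11 clade B members had a median difference of 0.03, and 8 of 11 lay at or below background on all arrays. Its expressed members were Serpinb2, Serpinb8 and Serpinb12. Serpinb2 encodes plasminogen activator inhibitor 2, which activated macrophages make and which inhibits urokinase. It read 7.28 and 7.56 in WT against 8.72 and 8.05 in Hem1 KO macrophages. Both Hem1 KO values were above both WT values, but the difference of 0.97 (SE 0.34, n = 2) was not called. Without Hem1 KO replicate 2 it was 1.31 and called, and without Hem1 KO replicate 1 it was 0.63. Serpinb8, an inhibitor of furin, read 7.32 and 6.46 in WT against 6.67 and 5.79 in Hem1 KO macrophages. The genotypes overlapped, and the difference of -0.66 (SE 0.39) was smaller than either replicate gap (0.86 and 0.89).

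Among the secreted serpins, Serpinf1 had the largest difference. It encodes pigment epithelium-derived factor, a serpin that does not inhibit proteases. It read 9.19 and 8.98 in WT against 10.22 and 9.45 in Hem1 KO macrophages, without overlap. The difference of 0.75 (SE 0.35, n = 2) was not called, ran from 0.37 to 1.14 over the alternatives and was similar to the gap of 0.77 between the Hem1 KO replicates. The stromal markers had a median difference of 1.94, and whether the Serpinf1 difference is linked to theirs was not tested. The neighbour of Serpinf1, Serpinf2, which encodes the plasmin inhibitor antiplasmin, differed by 0.06.

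Serping1, which encodes the C1 inhibitor of complement, read 7.94 and 7.37 in WT against 8.33 and 7.54 in Hem1 KO macrophages. The genotypes overlapped, and the difference was 0.28 (SE 0.36). Serpind1, heparin cofactor II, read 6.30 and 6.26 against 5.98 and 6.01, near background, with a difference of -0.28 (SE 0.31).

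The 20 clade A genes, whose best known members are plasma proteins made by the liver, had differences from -0.25 to 0.30 and a median of 0.04. Limma called 0 of them, with 0 at an unadjusted p under 0.05. The 5 above background on every array included Serpina6, corticosteroid-binding globulin, which read 7.32 and 7.06 in WT against 7.42 and 6.66 in Hem1 KO macrophages. Serpina11, the brightest of them by mean, read 7.78 and 7.26 against 7.75 and 6.91. In both genes the spread within each genotype was larger than the difference between the genotypes. Antithrombin (Serpinc1), Serpine3 and Serpini2 lay at or below background on all arrays, and neuroserpin (Serpini1) was above it on 1 array.

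Replicate 1 of each genotype read higher than replicate 2 for most members. This held for 43 of 54 members in WT and 48 of 54 in Hem1 KO macrophages, with median gaps of 0.28 and 0.52. It also held for 84.8% and 81.9% of all genes, so it was not limited to the serpins. Serpinb6b and Serpinb1a were members in which Hem1 KO replicate 1 was instead the lower array.

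The proteases that serpins meet, with their receptors and carriers, were described from 5 gene lists holding 59 different measured genes. Of these, 4 were called higher and 2 lower, against 1.48% and 0.133% of all genes. The median difference was 0.07. The lists were chosen with earlier results of these data known, so nothing is read from the counts of called genes. Mmp2 and Mmp9, which are no serpin targets, are among the called genes. Of 16 granule serine proteases, 2 were called higher and 0 lower, with a median of 0.17. These were Mcpt8, a basophil granule protease, with values of 5.89 and 5.22 in WT against 10.07 and 9.52 in Hem1 KO macrophages (difference 4.24, SE 0.35; above background on 1 of the 2 WT arrays, and only just), and the granzyme gene Gzmc. Gzmc read 3.90 and 4.10 in WT against 6.16 and 5.69 in Hem1 KO macrophages, below background on both WT arrays and at least 1.17-fold higher. Of the other 7 basophil and mast cell markers, the differences ran from -0.14 to 0.18, and 5 lay at or below background on all arrays, including Fcer1a and Cpa3. Of the known targets of these inhibitors, granzyme B (Gzmb) was at or below background on all arrays, as was cathepsin G (Ctsg), while Elane and Prtn3 were above it on all arrays with differences of 0.23 and 0.19. Another granzyme gene, Gzmm, was above background on all arrays, with a difference of 0.04.

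**Figure D4:**
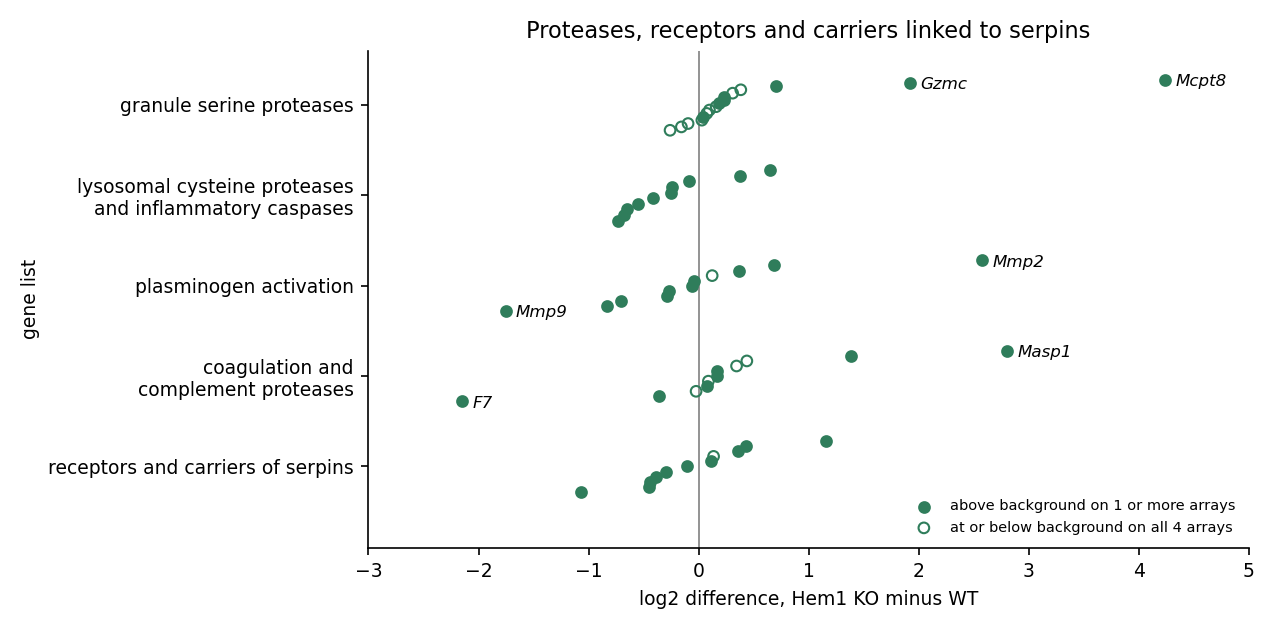
Log2 difference, Hem1 KO minus WT (horizontal axis), of the measured genes of the 5 lists of proteases, receptors and carriers (vertical axis), filled where the gene lay above background on 1 or more arrays and open where it did not. The named genes are the called ones. Mcpt8, Gzmc, Mmp2 and Masp1 lie to the right and Mmp9 and F7 to the left of the bulk of the points.

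All 10 lysosomal cysteine proteases and caspases were expressed on every array, and 0 were called by limma, although 1 had an unadjusted p under 0.05, and the list median was -0.33. The largest differences were those of Casp1, the caspase that matures interleukin 1 beta (11.04 and 10.88 in WT against 10.25 and 10.21 in Hem1 KO macrophages, difference -0.73, SE 0.31), and of cathepsin L, Ctsl (-0.68, SE 0.33). With an intensity trend in limma's prior, both of these and Ctss (-0.55) were called lower. The macrophage markers stood at a similar median of -0.37, and whether these shifts are linked was not tested.

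Of 11 genes around plasminogen activation, 1 was called higher and 1 lower, with a median of -0.06. The called genes were the gelatinases Mmp2 (8.66 and 8.12 in WT, 11.38 and 10.55 in Hem1 KO macrophages, difference 2.58, SE 0.36) and Mmp9 (7.38 and 7.99 in WT, 6.05 and 5.81 in Hem1 KO macrophages, difference -1.75, SE 0.33), which are metalloproteases and no serpin targets. Neither gene overlapped between the genotypes. Urokinase, Plau, the target of Serpinb2, read 8.84 and 9.75 in WT against 7.88 and 9.05 in Hem1 KO macrophages, and the genotypes overlapped (-0.84, SE 0.42). The Plau difference moved with the array left out, from -1.42 (Hem1 KO replicate 2) to -0.25 (Hem1 KO replicate 1). Dropping WT replicate 1 gave -1.29, and dropping WT replicate 2 gave -0.38. Of 11 coagulation and complement proteases, Masp1 of the lectin pathway was called higher and F7 lower, with a median of 0.16. Masp1 read 7.10 and 6.13 in WT against 9.90 and 8.94 in Hem1 KO macrophages (2.81, SE 0.41). The C1 inhibitor target C1ra differed by 0.16. C1s1, another, read 6.72 and 5.92 in WT against 8.41 and 6.99 in Hem1 KO macrophages, without overlap, and its difference of 1.38 (SE 0.44) was not called on all arrays. It was called without WT replicate 1 (1.78), without Hem1 KO replicate 2 (2.09) and with an intensity trend in limma's prior. The clotting factor gene F7 read 6.33 and 7.95 in WT against 5.47 and 4.51 in Hem1 KO macrophages, not above background on either Hem1 KO array and at least 2.69-fold lower. Its difference was -1.34 and not called without WT replicate 2. The call of Mmp9 also ended without that array, at -1.45, and both calls ended after quantile normalization.

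Among 11 receptors and carriers 0 were called by limma, although 2 had an unadjusted p under 0.05, and their median was -0.11. Lrp1, which clears complexes of serpins with proteases, read 11.83 and 12.09 in WT against 11.77 and 12.38 in Hem1 KO macrophages, and the genotypes overlapped. Vldlr, a lipoprotein receptor, read 6.51 and 5.66 against 7.58 and 6.91 (1.15, SE 0.37), without overlap and not called. When single arrays were left out, its difference ran from 0.73 (WT replicate 2) to 1.58 (WT replicate 1). Pnpla2, a triglyceride lipase that binds the Serpinf1 product, read 10.40 and 10.29 against 9.61 and 8.94 (-1.07, SE 0.34). It was not called on all arrays, but was called after centring (-1.17) and with the intensity trend. When single arrays were left out, the Pnpla2 difference ran from -1.40 (Hem1 KO replicate 1) to -0.74 (Hem1 KO replicate 2).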

How the data were processed

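RNA from 4 macrophage cultures, 2 per genotype, was hybridised to 1 array each after biotin labelling with an Affymetrix Pico kit, per the labels' protocols. The deposited values are on the log2 scale (read from their range) and were made by RMA, per the submitters' processing notes, with no version or settings. Array annotation, probe sequences and build are not given in the sources used here. Of 29129 probe sets and controls, 19572 carried 1 symbol. The brightest probe set was kept for 55 genes with several, none of them a serpin, which left 19505 genes. Limma 3.58.1 (R 4.3.3; lmFit, then eBayes) tested genotype two-sided in all of them, unfiltered, with Benjamini-Hochberg adjustment. The fit was tested on simulated data. The number of arrays limits the precision. Where a gene lay at or below background on both arrays of 1 genotype, its fold is given as "at least", against the mean of the higher of background and its own value. The members and lists were chosen with earlier results of these data known.

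Serpins were named where called, where they differed by 1 or more without overlap and lay above background on at least 2 arrays, or as Serpinb6 or Serpinb9 genes, with the brightest of each clade. List genes were named where called, otherwise the 2 with the largest difference above background. Serpinb1c, Serpinb8, Serpinb2, Serpinf1, the flanking genes and the targets of named inhibitors were chosen after their values were seen. Sequences are from RefSeq (GRCm38.p6) and were aligned with Biopython 1.88 (scores 2, -3, -5 and -2 for a match, a mismatch, opening and extending a gap). Alternatives left out each array, blocked on the replicate number, normalized by centring or quantiles, gave the prior an intensity trend, dropped dim genes, averaged probe sets or raised the background.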

Additional observations from a re-analysis of the deposited data

How the results depend on the processing

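Serpinb6b was called lower in all 10 alternatives, and the difference of Serpinb9b, which chose the family, ran from -2.80 to -2.05. Among the serpins, Serpinb1a was also called lower after centring and with the replicate block. The count called higher was 0 to 1 when single arrays were left out and 1 with the block, Serpinb2 both times. The family's median difference ran from -0.27 to 0.27 without single arrays. Serping1, at 0.28, ran from -0.12 to 0.67 when single arrays were left out and turned negative on leaving out WT replicate 2 (-0.01) or Hem1 KO replicate 1. Of the list genes, 4 to 7 were called higher and 0 to 3 lower without single arrays. With the replicate block Plau and Pnpla2 were also called lower and Vldlr and C1s1 higher. The count called lower was 4 with the block, 0 after quantile normalization, 6 with an intensity trend and 0 among genes above background on at least 2 arrays, which are fewer genes; the cause of the other moves was not tested. Over all genes, 26 were called lower and 288 higher, against 199 and 620 with the block, 16 and 314 after quantile normalization, 70 and 400 after centring, and 205 and 409 with the intensity trend. It was 101 lower without Hem1 KO replicate 1, 54 lower and 185 higher without WT replicate 2, and 53 lower and 545 higher without Hem1 KO replicate 2, so the shares of all genes called move with single arrays. Arrays with the same replicate number deviated together from their group means (r = 0.24 across genes, which are not independent replicates), but the labels do not say that the number marks a shared day or litter, so it was not used to pair them. The serpins above background on all arrays numbered 14, and 8 at the 99th percentile. Signal near background limits what can be said of the 30 members that never rose above it. With 2 arrays per genotype, an exact permutation test could not reach the threshold.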
